A study of Mus musculus with 6 samples.

Results

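Respiratory complex I (NADH:ubiquinone oxidoreductase) is the largest enzyme of the mitochondrial respiratory chain, and its subunits were followed here in splenic B cells with and without *Hif1a*. The genes were taken by name: every protein-coding gene of GENCODE vM21 whose symbol begins with *Nduf* followed by a, b, c, s, v or ab and a digit, or with *mt-Nd*. The rule found 45 genes among the 46983 of the table, 38 encoded in the nucleus and 7 in mitochondrial DNA (mtDNA), and all 45 were present. The rule itself uses names and no expression value.

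The libraries were bulk RNA-seq of mouse B cells held for 3 days (72 h) under IgA class switching conditions, stimulated by 5 μg/ml LPS together with 10 ng/ml of TGF-β, 10 ng/ml of IL-5 and 10 ng/ml of BAFF. There were 3 WT and 3 *Hif1a* KO libraries, here called WT1 to WT3 and KO1 to KO3. In the KO cells cre expressed from *Mb1* (*Cd79a*), a gene of the B lineage, removes a floxed segment of *Hif1a*, which encodes the α subunit of hypoxia-inducible factor 1. The WT animals were littermates that carried floxed *Hif1a* without cre or a single floxed allele with it, and neither this, nor the age of the mice, nor any pooling is given for a library. Nothing in the labels ties the libraries to separate animals, so the p-values measure the spread between these libraries. The study's methods start class switching cultures from follicular B cells (CD21int CD23+) sorted from spleen, a gate that would remove other cell types, while the labels of these libraries name splenic B cells without a sort.

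Complex I takes electrons from NADH and passes them through a chain of iron-sulfur clusters to ubiquinone, and the energy released drives protons across the inner mitochondrial membrane. Its core is split between genomes: the arm that reaches into the matrix is built from nuclear products, and the central membrane subunits are made inside the mitochondrion. Around the core sit accessory subunits, all nuclear, that stabilize the complex and help it to assemble. mtDNA is transcribed from both strands as long precursors that are cut into separate mRNAs, so its genes do not each have a promoter of their own. HIF-1 is known for shifting cells from respiration towards glycolysis, and activated B cells use both.

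The values are FPKM, fragments per kilobase of gene and M mapped reads, as the authors computed them, at 25.0 to 37.2 M reads per library. Differences are log2 fold changes of FPKM + 1, KO minus WT, from 1 limma fit to the 13312 genes with a mean of at least 0.5 FPKM, with p-values adjusted over all of them by Benjamini and Hochberg's method and called at an adjusted p under 0.05. Of the 45 genes 44 were tested. The exception was *Ndufa4l2*.

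WT2 and WT3 stood apart from the other libraries. The first principal component took 54.7% of the variance and placed these libraries at 26.2 and 25.9, with WT1 at -15.7 among the KO libraries (-7.10 to -19.5). All 9 macrophage markers were highest in WT2 or WT3, with summed FPKM of 169 and 118 there against 66.3 to 78.3 in the rest, and so were 5 of 6 erythroid markers (16.2 and 13.5 against 2.91 to 4.72). Of these markers 4 of the 9 and 3 of the 6 averaged at least 0.5 FPKM, and the rest lay below that. The 6 neutrophil markers summed to 37.1 in WT1 and to 0.478 or less elsewhere, the 6 T-cell markers stayed at 0.995 to 1.68, and the 7 B-cell markers were abundant in every library (3006 to 4031). Y-linked genes were expressed in KO2 and at or near 0 elsewhere. *Hif1a* itself was at 36.5, 49.8 and 45.8 FPKM in WT and 46.5, 45.6 and 52.8 in KO. FPKM counts reads over all exons, so these values do not test the loss of the floxed segment.

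Several subunits have near-identical copies elsewhere in the genome, and these bear on how the levels can be read. A transcript search found a copy of at least 95% identity over 200 bases or more for 13 of the 45 genes, 5 mitochondrial and 8 nuclear. Some windows are printed here from GENCODE vM21 transcripts (GRCm38), 5′ to 3′, to show how alike gene and copy are. Lower-case letters are shared and capitals mark the bases that differ. *mt-Nd3* (chrM:9459-9578, plus strand) is set against the unprocessed pseudogene *Gm28438* (chr1:24613000-24613119, minus strand).
mt-Nd3: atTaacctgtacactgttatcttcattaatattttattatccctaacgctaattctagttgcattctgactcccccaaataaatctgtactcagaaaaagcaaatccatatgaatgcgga
Gm28438: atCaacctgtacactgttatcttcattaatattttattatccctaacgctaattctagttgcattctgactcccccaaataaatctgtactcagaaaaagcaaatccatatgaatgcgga

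The 2 sequences differed at 1 of the 345 bases aligned, out of 348 in *mt-Nd3*, and the longest identical stretch was 342 bases. For *mt-Nd4l* (chrM:9877-9996, plus strand) the copy *Gm10222* (chr1:24612581-24612700, minus strand) had no difference over 294 of 297 bases, so the window below holds no capitals.
mt-Nd4l: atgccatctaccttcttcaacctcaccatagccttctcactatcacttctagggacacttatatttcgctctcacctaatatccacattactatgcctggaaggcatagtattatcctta
Gm10222: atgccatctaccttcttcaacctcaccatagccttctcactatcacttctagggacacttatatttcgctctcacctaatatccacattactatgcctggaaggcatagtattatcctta

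*mt-Nd2* (chrM:4575-4694, plus strand) stands for the more diverged copies. Its best match, *Gm13339* (chr2:22590281-22590400, minus strand), was 96.7% identical over 510 of 1038 bases, with 7 differences in this stretch.
mt-Nd2: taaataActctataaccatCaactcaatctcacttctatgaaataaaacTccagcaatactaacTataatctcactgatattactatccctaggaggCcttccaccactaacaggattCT
Gm13339: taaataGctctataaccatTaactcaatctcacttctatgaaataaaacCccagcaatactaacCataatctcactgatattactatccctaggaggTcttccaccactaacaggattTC

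*mt-Nd4* shared 876 of its 1378 bases without a difference with *Gm28439* on chromosome 1, *mt-Nd5* had a copy of 95.2% identity over 954 of 1824 bases (*Gm4076*), and *mt-Nd1* and *mt-Nd6* had none by this rule. How reads that align to several places were counted is not given in the sources used here.

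The 7 mitochondrial genes, which encode the core of the membrane arm, spanned a wide range of levels. *mt-Nd1*, whose product lies where ubiquinone enters the complex, led in all 6 libraries with a mean of 1429 FPKM. *mt-Nd5* (883 FPKM) and *mt-Nd2* (850 FPKM), both proton-pumping subunits, came next, and *mt-Nd5* was the higher of the pair in 4 of 6 libraries. *mt-Nd6* (574 FPKM), the gene of this set that is read from the opposite mtDNA strand, and *mt-Nd4* (522 FPKM), a further proton-pumping subunit, followed and each was the higher in 3 of 6 libraries, so their order is not settled. All 5 had means above every nuclear subunit. *mt-Nd3* and *mt-Nd4l*, small membrane subunits, were at 4.93 and 2.87 FPKM, on 34 to 72 and 15 to 36 reads per library, which put *mt-Nd1* 290-fold and 497-fold above them. The genes with so few reads are those whose sequence is matched almost end to end by the chromosome 1 copies shown above. *Gm28438* was listed at 16.5 to 21.3 FPKM and *Gm10222* at 2.97 to 5.24 FPKM. The same held for some mtDNA genes of other complexes. *mt-Co2*, *mt-Co3* and *mt-Atp6*, each identical to a chromosome 1 copy over nearly its whole length, were at 17.3 to 55.6 FPKM. *mt-Cytb*, for which no copy was found, was at 1593 to 2341 FPKM. *mt-Atp8* was an exception, at 0.944 to 8.53 FPKM on 5 to 52 reads per library with no copy found. At 204 bases it is hardly longer than the shortest match that the search accepted, so a copy could have been missed. The part of the copies in these low levels was not tested. *mt-Nd6* shares 2.70% of its bases with the antisense end of *mt-Nd5*, and since it is not stated whether the counting used strand, reads of *mt-Nd6* and of the transcript opposite to it cannot be told apart.

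**Figure D1:**
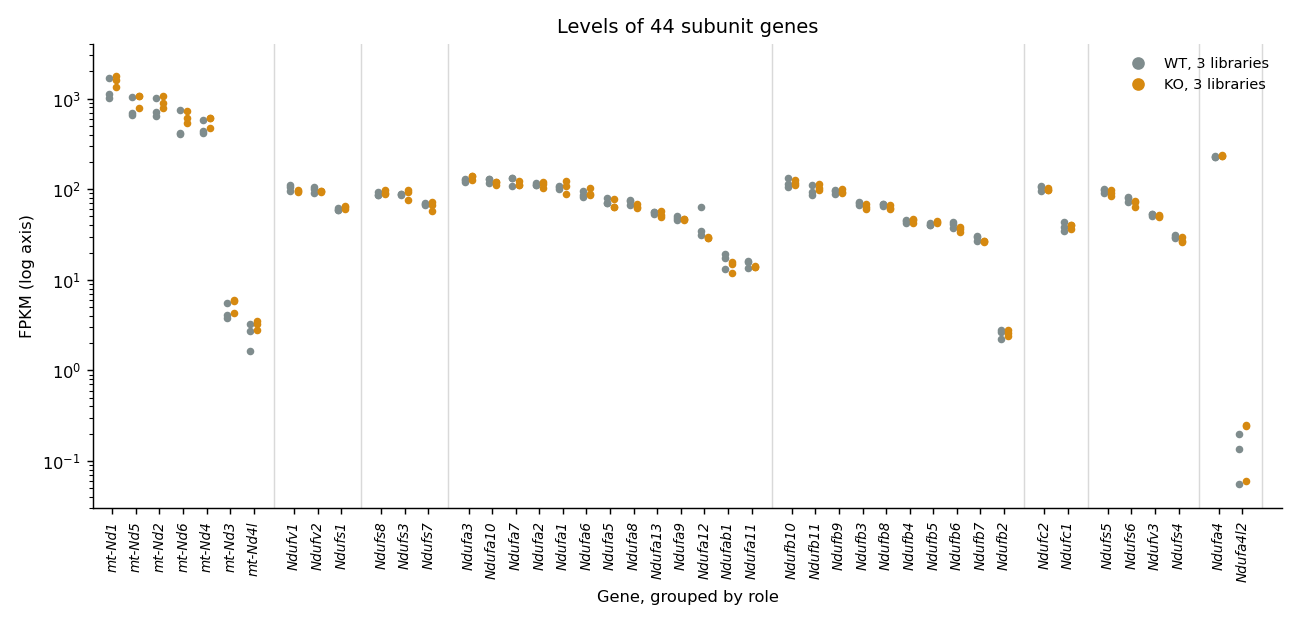
FPKM (log axis) of 44 complex I genes, grouped by role and ordered by mean within a role, with 1 point per library. From left to right the groups are mitochondrial core, NADH-oxidising core, quinone-binding core, the A, B and C series, the S and V series, and the last pair *Ndufa4* and *Ndufa4l2*. Of the mitochondrial genes, 5 lie above every nuclear gene and *mt-Nd3* and *mt-Nd4l* lie under 6 FPKM.

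The nuclear subunits sat much closer together. Their median was 71.4 FPKM, above 85.9% of the genes tested, and 27 of the 37 tested lay between 40 and 130 FPKM. Of the nuclear core, *Ndufv1*, which binds NADH and the flavin that takes its electrons, was at 99.8 FPKM and its partner *Ndufv2* at 96.6 FPKM. The iron-sulfur subunit *Ndufs1* (61.3 FPKM) was the lowest of the core, and *Ndufs8* (90.2 FPKM), *Ndufs3* (88.5 FPKM) and *Ndufs7* (67.2 FPKM) lay above it. In the A series the extremes were *Ndufa3* (130 FPKM) and *Ndufa11* (14.5 FPKM), in the B series *Ndufb10* (118 FPKM) and *Ndufb2* (2.58 FPKM), in the C series *Ndufc2* (102 FPKM) and *Ndufc1* (38.7 FPKM), and among the remaining S and V genes *Ndufs5* (93.6 FPKM) and *Ndufs4* (28.7 FPKM).

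Some of these low levels move with the length by which reads were divided. The length recovered from the deposited values was 2661 bases for *Ndufa11* and 2529 bases for *Ndufb7*, against 545 and 623 bases in their longest principal transcripts. Dividing by the principal length instead gave 71.0 FPKM for *Ndufa11* and 113 FPKM for *Ndufb7*, in place of 14.5 and 27.7. *Ndufb2* stayed low, at 86 to 130 reads per library and 0.738 FPKM by the principal length of 4371 bases. A transcript of 491 bases is annotated as well, so its level depends on the transcript chosen. *Ndufv1* came to 54.5 FPKM and *Ndufs1* to 29.7 FPKM by the principal length. Levels of different genes are therefore comparable only as far as these lengths are right, whereas fold changes between libraries do not depend on them beyond the pseudocount of 1. Exon bases were shared with another gene for 16 of the nuclear genes, up to 39.0% for *Ndufb6*, with a gene on the opposite strand. Whether the counting used strand is not stated, and the part of this sharing in the levels was not tested.

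*Ndufa4* and *Ndufa4l2* carry complex I names, but the product of *Ndufa4* is now counted with cytochrome c oxidase (complex IV) and *Ndufa4l2* is a known HIF-1 target that can take its place. *Ndufa4* was the highest of all nuclear genes of the set and the steadiest, at 233, 224 and 227 FPKM in WT and 237, 232 and 230 FPKM in KO, a coefficient of variation (CV) of 1.97%. *Ndufa4l2* was listed at 0.0560, 0.135 and 0.201 FPKM in WT and 0.2497, 0.0606 and 0.244 FPKM in KO, which is 2 to 7 reads per library. At this depth no difference in *Ndufa4l2* could be measured.

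No complex I gene was called in the comparison of KO with WT. The limma fit called 0 of 13312 genes (0%), 929 had an unadjusted p under 0.05 (6.98%), and voom on the recovered reads also called 0, with 832 at an unadjusted p under 0.05. Of the 44 complex I genes 0 had an unadjusted p under 0.05 in either fit. Among the nuclear genes 13 had a positive and 24 a negative fold change, with a median of -0.05 on the log2 scale beside -0.03 over all genes tested. Counts of signs here and below stand beside 5604 positive and 7708 negative fold changes over the 13312 genes tested. Scaling the libraries by median ratios made the nuclear counts 16 and 21, with a median of -0.02. All 7 mitochondrial genes had a positive fold change, from 0.22 to 0.32 with a median of 0.28, and adjusted p-values (limma) of 0.646 to 0.684. Apart from *mt-Nd6*, which is read from the opposite mtDNA strand, these mRNAs are cut from shared precursors. All 7 were also measured in the same libraries, so here and below they do not count as separate observations. The distance between the mitochondrial and the nuclear median was 0.33.

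**Figure D2:**
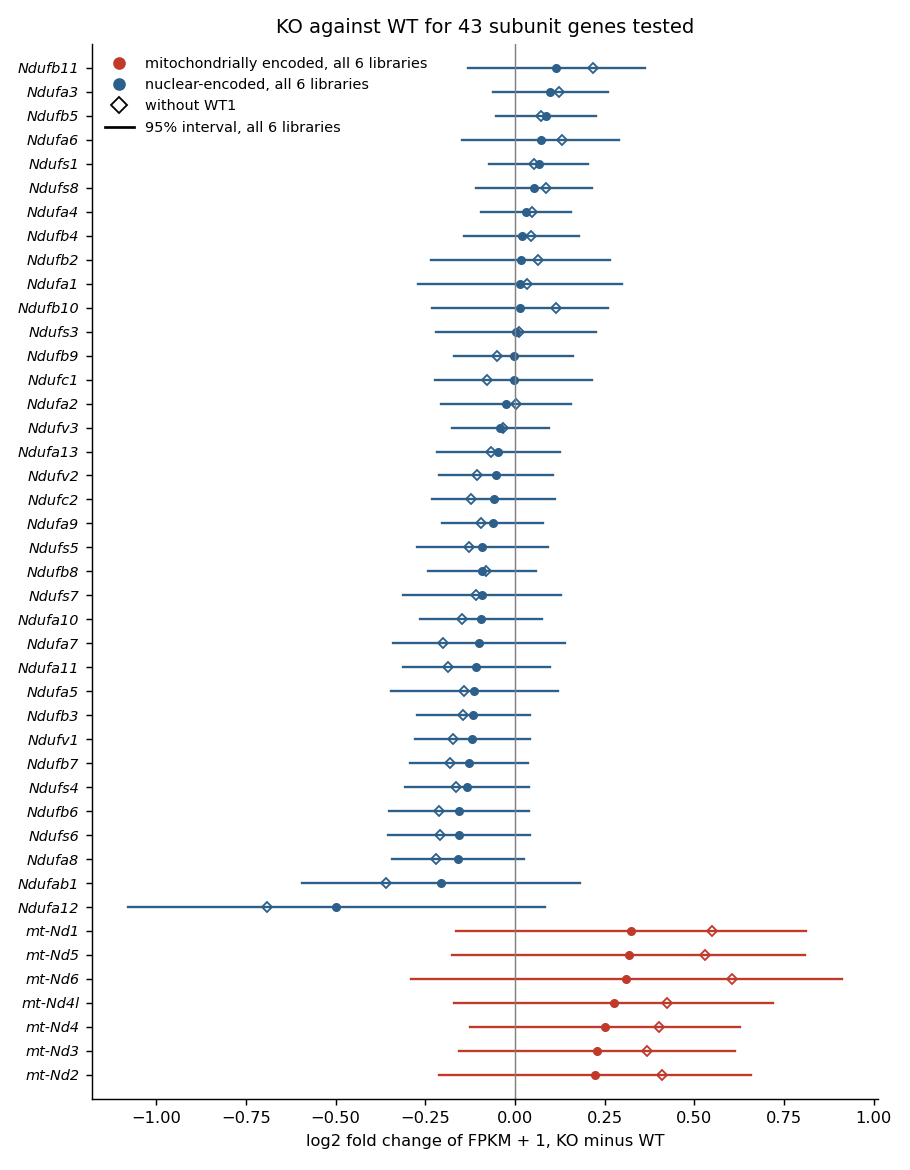
Log2 fold change (KO minus WT, FPKM + 1) of 43 complex I genes tested, with 95% intervals from limma over all 6 libraries. Open diamonds give the fold change without WT1. Every interval includes 0, the 7 mitochondrial genes lie between 0.22 and 0.32, and all 7 move to the right without WT1.

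The intervals set how large a difference could have gone unseen. For 26 of the 37 nuclear genes the 95% interval lay within ±0.3 on the log2 scale and for 35 within ±0.5, the exceptions being *Ndufab1* and *Ndufa12*. The standard error had a median of 0.07 for nuclear and 0.19 for mitochondrial genes, and the mitochondrial intervals ran from as low as -0.29 to as high as 0.91. The mitochondrial genes varied more over the 6 libraries, with CVs of 17.3% to 26.6% and a median of 22.2%, against a median of 6.65% for the nuclear genes. A CV under 10% was found for 33 of 37 nuclear genes.

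The wider spread of the mitochondrial genes came with a split inside the WT group. *mt-Nd1* was at 1706, 1016 and 1125 FPKM in WT and at 1349, 1793 and 1583 FPKM in KO. WT1 thus lay inside the KO range, and WT2 and WT3 lay below every KO library. *mt-Nd2* was at 1004, 647 and 715 FPKM in WT and 785, 1056 and 894 FPKM in KO. *mt-Nd4* gave 583, 416 and 435 FPKM in WT and 475, 608 and 617 FPKM in KO. *mt-Nd5* gave 1040, 651 and 684 FPKM in WT and 783, 1059 and 1079 FPKM in KO. In each of these genes WT2 and WT3 were the lowest libraries and KO1 the lowest of the KO group.

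*mt-Nd6* was at 753, 402 and 412 FPKM in WT and 533, 735 and 608 FPKM in KO, and WT1 exceeded every KO library. The small *mt-Nd3* was at 5.56, 4.08 and 3.76 FPKM in WT and 5.97, 4.35 and 5.87 FPKM in KO. *mt-Nd4l* was at 3.26, 1.63 and 2.72 FPKM in WT and 2.83, 3.53 and 3.27 FPKM in KO. For all 7 genes WT and KO values overlapped through WT1, and all 7 had every KO value above WT2 and WT3, as did 18.4% of all genes tested. WT1 was inside the KO range for 6 of the 7.

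**Figure D3:**
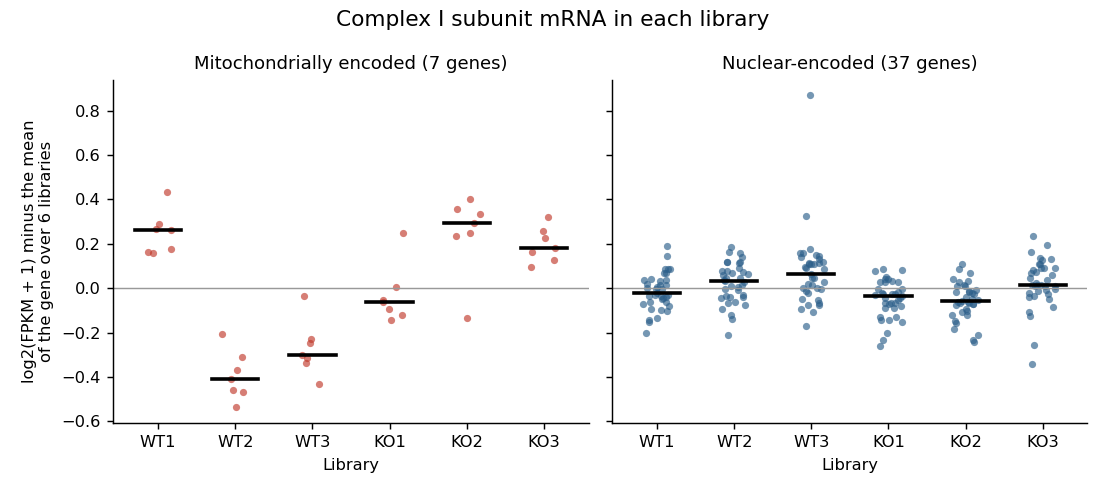
Deviation of each gene's log2(FPKM + 1) from its mean over 6 libraries, for the 7 mitochondrial (left) and the 37 nuclear (right) genes tested. Points are genes and bars are medians over genes. The mitochondrial medians fall to -0.41 in WT2 and -0.30 in WT3, and the nuclear medians stay within -0.06 and 0.07.

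Leaving WT1 out raised the mitochondrial fold changes to between 0.37 and 0.61, with a median of 0.42. All 7 then had an unadjusted p under 0.05, as did 11.0% of all genes in the same direction, and *mt-Nd6* was called (log2 fold change 0.61, limma adjusted p = 0.0450) where 3.64% of all genes were called higher. The other 6 had adjusted p-values (limma) of 0.0523 to 0.164. WT1 is the WT library that lay among the KO libraries on the first principal component. Here and below, p-values from fits without WT1, or with little weight on it, are therefore no test of the genotype by themselves. Without WT2 the mitochondrial median was 0.16 and without WT3 0.19, and the 7 fold changes stayed positive whichever library was left out. The mRNAs other than *mt-Nd6* share precursors, and all 7 come from the same libraries. Thus 7 of 7 is not a count of separate observations to weigh against the 11.0%.

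Summed over genes, the nuclear subunits varied little between libraries and the mitochondrial ones more. The 38 nuclear genes added up to 2919, 2938 and 3004 FPKM in WT and 2832, 2825 and 3015 FPKM in KO. The 7 mitochondrial genes added up to 5095, 3139 and 3377 FPKM in WT and 3933, 5259 and 4790 FPKM in KO. Their ratio was 1.75, 1.07 and 1.12 in WT (1.31 ± 0.376, SD, n = 3) and 1.39, 1.86 and 1.59 in KO (1.61 ± 0.237, SD, n = 3). WT1 had the second highest ratio of all, so the groups overlapped. The sums carry no test, since the genes were chosen with earlier results of these data known. In bulk samples fewer mitochondria per cell, fewer mtDNA transcripts per mitochondrion and a changed mix of cells cannot be told apart.

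**Figure D4:**
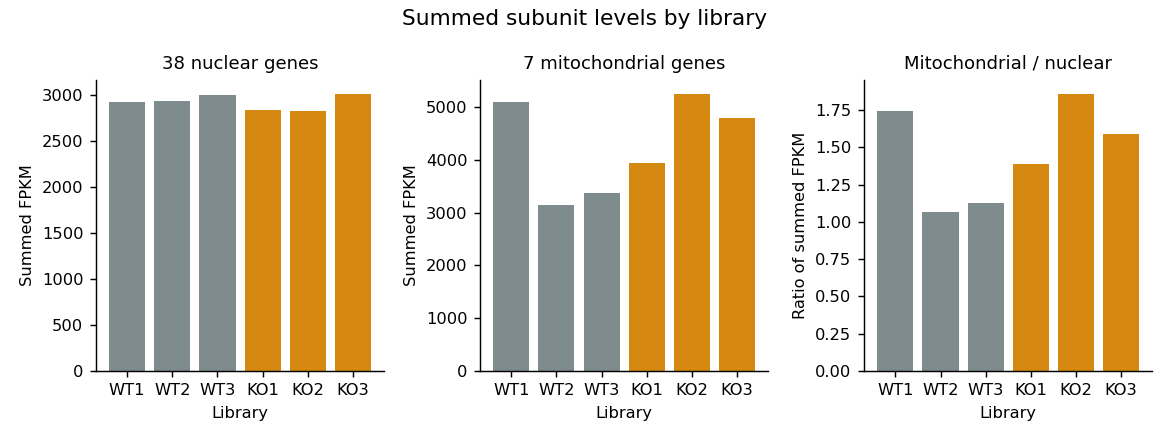
Summed FPKM of the 38 nuclear genes (left) and the 7 mitochondrial genes (middle) and their ratio (right) in each library, WT in grey and KO in orange, all axes starting at 0. The nuclear sums lie between 2825 and 3015, and the ratio is lowest in WT2 (1.07) and WT3 (1.12).

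Other mtDNA genes had positive fold changes as well. Mitochondrial genes took 1.62%, 1.07% and 1.17% of the reads in WT and 1.28%, 1.66% and 1.71% in KO. Of the summed FPKM of the 13 mtDNA mRNAs, the complex I genes held 38.5% to 42.4%, with 40.3% ± 1.60 in WT and 40.7% ± 2.01 in KO (SD, n = 3). The 6 mRNAs outside complex I all had positive fold changes with a median of 0.28. These too are cut from the shared precursors and are no separate observations. *mt-Co1*, the catalytic core of complex IV, was at 4611, 3055 and 3425 FPKM in WT and 3664, 4703 and 5214 FPKM in KO (log2 fold change 0.30). *mt-Cytb*, the mtDNA subunit of complex III, had 0.21, *mt-Co2* 0.25, *mt-Co3* 0.17, and the ATP synthase genes *mt-Atp6* and *mt-Atp8* had log2 fold changes of 0.39 and 0.67. None of the 6 was called with all libraries, and *mt-Atp6* was called without WT1 (log2 fold change 0.63, limma adjusted p = 0.0126).

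The libraries with low mtDNA transcripts also differed in cell markers. WT2 and WT3 had the lowest share of reads on immunoglobulin genes (1.97% and 1.81%, against 2.2% to 2.87% in the rest) and the highest macrophage and erythroid sums. The plasma cell markers summed to 939 and 893 FPKM in WT2 and WT3, to 999 in KO2 and to 1346 to 1732 FPKM in WT1, KO1 and KO3. *Prdm1*, the regulator that drives plasma cell formation, was at 17.1 and 16.7 FPKM in WT2 and WT3 and at 29.2 to 55.9 FPKM elsewhere. The part of these differences in the mitochondrial values was not tested.

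KO and WT overlapped for each nuclear core gene named here. *Ndufv1* was at 96.4, 110 and 106 FPKM in WT and 98.2, 94.6 and 93.9 FPKM in KO (log2 fold change -0.12 ± 0.07, SE). *Ndufs1* was at 58.6, 59.6 and 61.3 FPKM in WT and 65.01, 63.0 and 60.2 FPKM in KO (log2 fold change 0.07 ± 0.06, SE). The log2 fold change was -0.09 for *Ndufs7*, -0.05 for *Ndufv2*, 0.00 for *Ndufs3* and 0.05 for *Ndufs8*. These core genes were thus within 0.12 of no change on the log2 scale.

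The accessory genes gave the only members whose WT and KO values did not overlap. Every KO value lay above every WT value for 1 of the 37 nuclear genes, against 4.06% of all genes tested, and below for 2 of 37, against 6.03%. These shares are near the background. *Ndufb5*, an accessory subunit of the membrane arm, was at 39.95, 42.4 and 40.1 FPKM in WT and 43.0, 44.7 and 42.5 FPKM in KO (log2 fold change 0.09 ± 0.06, SE, limma adjusted p = 0.653). Its lowest KO value exceeded its highest WT value by less than 0.1 FPKM. *Ndufb7*, a subunit on the intermembrane side, was at 26.8, 30.03 and 30.2 FPKM in WT and 26.0, 26.6 and 26.7 FPKM in KO (log2 fold change -0.13 ± 0.07, SE, limma adjusted p = 0.626). The gap to WT1 was again under 0.1 FPKM.

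*Ndufa12*, an accessory subunit of the matrix arm, had the most negative fold change of the set, and it rested on 1 library. It was at 31.4, 34.9 and 64.0 FPKM in WT and 28.7, 29.3 and 28.8 FPKM in KO (log2 fold change -0.50 ± 0.24, SE, limma adjusted p = 0.626). Without WT3 the fold change was -0.19. Its processed pseudogene *Gm15920* on chromosome 5 matches 402 bases of the *Ndufa12* transcript at 99.5% identity. A window of the coding sequence (transcript bases 127 to 246, gene on chromosome 10) and the copy (chr5:130188395-130188514, plus strand) are printed with the differing base in capitals.
Ndufa12: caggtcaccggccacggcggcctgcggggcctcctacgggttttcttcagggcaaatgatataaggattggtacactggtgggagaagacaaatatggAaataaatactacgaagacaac
Gm15920: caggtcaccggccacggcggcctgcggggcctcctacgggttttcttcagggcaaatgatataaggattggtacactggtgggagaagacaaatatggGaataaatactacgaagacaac

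In WT3, where *Ndufa12* was highest, *Gm15920* was lowest. In reads per M reads (RPM), *Ndufa12* had 18.5, 20.6 and 37.7 in WT and 16.9, 17.3 and 17.0 in KO. *Gm15920* had 23.6, 31.9 and 21.9 in WT and 25.9, 30.1 and 27.2 in KO. Added up, gene and copy gave 42.1, 52.5 and 59.7 in WT and 42.8, 47.4 and 44.1 in KO, so WT and KO overlapped, and the difference of mean log2 values (RPM + 1) went from -0.49 for the gene to -0.18 for the sum. Whether reads were divided between gene and copy in a different way in WT3 was not tested.

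**Figure D5:**
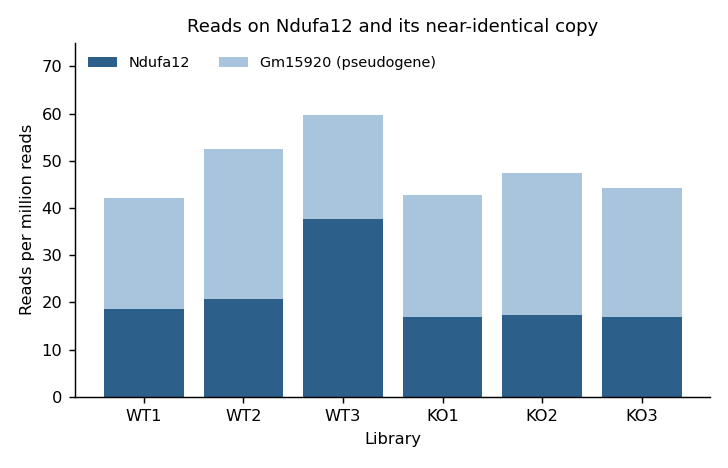
RPM on *Ndufa12* (dark) and its processed pseudogene *Gm15920* (light), stacked, in each library. WT3 has 37.7 on *Ndufa12* against 16.9 to 20.6 in the others, and the stacked total of WT1 (42.1) is below that of every KO library.

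*Ndufab1*, the mitochondrial acyl carrier protein, which also serves fatty acid synthesis, was the other variable nuclear gene (CV 17.9%). It was at 13.1, 17.4 and 19.3 FPKM in WT and 15.8, 14.97 and 11.8 FPKM in KO (log2 fold change -0.21 ± 0.16, SE). Its pseudogenes *Gm4459* and *Ndufab1-ps* match it at 99.8% and 99.4% identity over 468 and 469 bases and together held 9.71 to 15.9 RPM, against 11.5 to 18.8 for the gene. Adding them took the difference of mean log2 values (RPM + 1) from -0.21 for the gene to -0.25 for the sum. For the other nuclear genes with an expressed copy (*Ndufb4*, *Ndufs3*, *Ndufs5* and *Ndufs6*), the copies held 2.66 RPM or less beside 30.5 to 67.8 for the gene, and adding them moved the difference by less than 0.01 on the log2 scale.

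In the A series 3 of 13 genes had a positive and 10 a negative fold change with a median of -0.09. The B series was split, 5 and 5 of 10, with a median of 0.01, and the 4 accessory S and V genes were all negative with a median of -0.11. The extremes of level in these groups had log2 fold changes between -0.13 and 0.10: *Ndufa3* had 0.10, *Ndufa11* -0.11, *Ndufb10* 0.01, *Ndufb2* 0.02, *Ndufc2* -0.06, *Ndufc1* 0.00, *Ndufs5* -0.09 and *Ndufs4* -0.13. *Ndufs4*, an accessory subunit needed for a stable NADH-oxidising module, was at 28.7, 29.97 and 31.5 FPKM in WT and 26.1, 29.4 and 26.5 FPKM in KO. *Ndufa8*, a subunit on the intermembrane side, was at 66.1, 74.0 and 76.2 FPKM in WT and 61.6, 63.2 and 68.5 FPKM in KO. Its fold change of -0.16 ± 0.08 (SE) had the smallest unadjusted p of the nuclear genes, 0.0795 by limma. It was called when libraries were weighted by limma's arrayWeights (log2 fold change -0.22, adjusted p = 0.0482), a setting that gave WT1 a weight of 0.238 and called 6.82% of all genes lower.

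*Ndufa1* and *Ndufb11* lie on the X chromosome, and KO2 was the library with Y-linked transcripts. *Ndufa1*, a small membrane subunit, was at 108, 99.996 and 107 FPKM in WT and 107, 88.8 and 124 FPKM in KO, so that KO2 was the lowest library. *Ndufb11*, also of the membrane arm, was at 111, 86.7 and 93.2 FPKM in WT and 103, 99.0 and 113 FPKM in KO and had the largest positive fold change of the nuclear genes (0.12 ± 0.10, SE). The sexes of the animals are not in the labels.

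Without WT1, 11 of the 37 nuclear genes had an unadjusted p under 0.05, 10 lower in KO (where 18.9% of all genes were) and 1 higher (*Ndufb11*), and 0 were called by limma (5.75% of all genes were called lower), the lowest adjusted p being 0.0901. The 10 were *Ndufa7*, *Ndufa8*, *Ndufa10*, *Ndufa11*, *Ndufa12*, *Ndufab1*, *Ndufb6*, *Ndufb7*, *Ndufs6* and *Ndufv1*. Of the 37 nuclear genes 16 had every KO value below WT2 and WT3, against 32.0% of all genes, and 6 above, against 18.4%. WT1 lay inside the KO range for 22 of 37.

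The promoters of the nuclear genes were searched for short motifs in the RefSeq windows on GRCm38.p6, which run from 250 bases before to 50 bases after a gene's start. Of the 45 genes 33 had a window, 35 windows in all. The core of the HIF response element was searched as ACGTG and GCGTG on both strands. ACGTG, which is also part of the E-box CACGTG, was in 7 of the 35 windows (20%). It was in 19.6% of all 32851 windows and in 25.8% of the windows of the genes tested here. Either form was in 54.3% of the windows, in 43.8% of all windows and in 62.5% of the windows of the genes tested here. The share with a HIF core thus lay between these.

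The element AAGATGGC, read by the factor YY1, differed more in frequency. It was also in 7 of 35 windows (20%), but in 2.75% of all windows and in 4.72% of the windows of genes tested. The NRF1 motif with a free base, CGCANGCGC, was in 28.6% of the windows, in 6.31% of all and in 13.8% of those of genes tested. The ETS motif CCGGAAG was in 11.4% of the windows, between its shares of 8.86% in all windows and 18.7% in those of genes tested. The SP1 motif GGGCGG was in 45.7%, likewise between 35.7% and 62.1%. All 7 AAGATGGC matches lay after the annotated start and read in the direction of the gene. They are printed as 30 bases each with the motif in capitals, to show this shared position.
Ndufa3: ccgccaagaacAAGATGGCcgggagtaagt
Ndufa9: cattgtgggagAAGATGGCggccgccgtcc
Ndufb8: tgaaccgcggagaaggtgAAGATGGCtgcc
Ndufc1: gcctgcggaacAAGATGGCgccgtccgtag
Ndufs4: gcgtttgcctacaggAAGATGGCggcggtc
Ndufs6: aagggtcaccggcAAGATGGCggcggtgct
Ndufs7: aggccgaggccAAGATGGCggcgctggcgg

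The windows are, in this order, chr7:3617384-3617413 (plus strand), chr6:126849097-126849126 (minus), chr19:44555393-44555422 (minus), chr3:51408915-51408944 (minus), chr13:114388045-114388074 (minus), chr13:73328433-73328462 (minus) and chr10:80249462-80249491 (plus). Their fold changes, 0.10, -0.06, -0.09, 0.00, -0.13, -0.16 and -0.09 on the log2 scale, lay within the range of the other nuclear genes. A match is only a run of letters and does not show that a factor binds there. AAGATGGC also contains the letters ATG, and whether the matches fall on start codons of translation was not tested.

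Complex I is put together by assembly factors, and of 19 listed 18 were in the table and tested. Of these 3 had a positive and 15 a negative fold change, with a median of -0.08, and 0 were called. Over all genes tested 5604 were positive and 7708 negative. *Timmdc1*, a factor of the membrane arm, was at 21.5, 22.6 and 25.5 FPKM in WT and 19.1, 18.8 and 19.6 FPKM in KO (log2 fold change -0.26 ± 0.08, SE, unadjusted p = 0.0140, limma adjusted p = 0.626). *Ndufaf4*, which acts early in assembly, was at 9.53, 11.4 and 11.1 FPKM in WT and 9.23, 9.04 and 8.80 FPKM in KO (log2 fold change -0.22 ± 0.09, SE, unadjusted p = 0.0423, limma adjusted p = 0.626). These were 2 of 18 with an unadjusted p under 0.05 and lower in KO, against 4.50% of all genes, and their WT and KO values did not overlap. Every KO value lay below every WT value for 3 of the 18, against 6.03% of all genes, and above for 1, against 4.06%. Without WT1, *Ecsit* (-0.38, limma adjusted p = 0.0306) and *Acad9* (-0.40, limma adjusted p = 0.0420) were called lower, 2 of 18 where 5.75% of all genes were. They were picked after their values were seen.

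The machinery that transcribes and processes mtDNA had 31 genes tested of 32 listed, 8 with a positive and 23 with a negative fold change, a median of -0.05 and 0 with an unadjusted p under 0.05 by limma. The median of this list lay near the -0.03 over all genes tested, while the medians of the mtDNA mRNAs were positive. Of 9 regulators of respiratory genes tested, 2 had an unadjusted p under 0.05 and both were lower in KO, as were 4.50% of all genes. *Myc* was at 32.4, 49.2 and 51.7 FPKM in WT and 30.8, 29.95 and 35.8 FPKM in KO (log2 fold change -0.43, limma adjusted p = 0.626). *Pprc1*, a coactivator related to PGC-1α, was at 34.3, 45.3 and 43.9 FPKM in WT and 34.3, 34.4 and 32.0 FPKM in KO (log2 fold change -0.28, limma adjusted p = 0.626). In both genes WT1 lay with the KO libraries, and without WT1 both were called (-0.64 and -0.40, limma adjusted p = 0.0150 and 0.0186), in a fit that called 5.75% of all genes lower.

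Of 10 tested genes that link HIF-1 to mitochondria, 5 had a positive and 5 a negative fold change. They ran from -0.24 to 0.22 on the log2 scale with a median of 0.00, and 0 were called. *Higd1a*, a small respiratory chain protein induced by hypoxia, was at 18.7, 20.6 and 22.1 FPKM in WT and 17.6, 16.6 and 17.1 FPKM in KO (log2 fold change -0.24, unadjusted p = 0.0188, limma adjusted p = 0.626). *Lonp1*, the mitochondrial protease that HIF-1 is known to induce, was at 28.96, 33.1 and 35.3 FPKM in WT and 27.96, 27.8 and 26.5 FPKM in KO (log2 fold change -0.23, unadjusted p = 0.0306, limma adjusted p = 0.626). For both every KO value lay below every WT value, WT1 included. This held for 2 of the 10, against 6.03% of all genes. The same 2 had an unadjusted p under 0.05 and were lower in KO, as were 4.50% of all genes. Every KO value lay above every WT value for 1 of the 10, against 4.06% of all genes. The 13 tested genes of other routes by which electrons reach ubiquinone, such as complex II and the electron transfer flavoprotein, had 5 positive and 8 negative fold changes with a median of -0.01, and 0 had an unadjusted p under 0.05 by limma.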

How the data were processed

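RNA of 6 libraries of cultured splenic B cells was sequenced, 3 WT and 3 KO by the labels. The authors cleaned the reads, mapped the pairs onto mm10 (TopHat), counted them per gene (HTSeq) and deposited FPKM, 1 column per library. The annotation release, the strand setting and the treatment of reads with several alignments are not given in the sources used here. Symbols and positions are those of GENCODE vM21 on GRCm38, which held 46488 of 46983 gene IDs. For all 25717 genes above 0 the FPKM came to whole numbers of reads (tolerance 0.02 reads) at depths of 25.0 to 37.2 M reads.

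Differences were fitted with limma 3.58.1 in R 4.3.3 (lmFit, eBayes with trend) on log2(FPKM + 1), for genes averaging at least 0.5 FPKM, since a count model does not suit FPKM. Alternatives were another pseudocount (0.1), no filter on low values or a stricter one (5 FPKM), scaling by median ratios, by quantiles or to nuclear reads, leaving out immunoglobulin genes, eBayes with no trend or robust, a block for the replicate number, each library omitted in turn, voom on recovered reads and arrayWeights. Copies were found with blastn. *Coa1* and *Fastkd4* had no match in the table, and *Prorp* was matched by its synonym *1110008L16Rik*.

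The rule for named genes took all *mt-Nd* genes, the nuclear core, *Ndufa4* and *Ndufa4l2*, members with an unadjusted p under 0.05, called without a library or not overlapping between groups, the extremes of level in each role, pathway genes with an unadjusted p under 0.05, the other mtDNA mRNAs and *Hif1a*. *Ndufa8*, *Ndufab1*, *Ndufa1*, *Ndufb11*, *Ecsit*, *Acad9*, *Prdm1*, the genes named for a near-identical copy or a motif match and the list of those with a low p without WT1 were added once values were known. 1 gene that the rule takes is not reported here by name and is in the counts and sums only. The members and lists were chosen with earlier results of these data known. The other steps ran in Python 3.11.15 (pandas 2.3.3, matplotlib 3.10.9).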

Additional observations from a re-analysis of the deposited data

How the results depend on the processing

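The mitochondrial median stayed positive (0.16 to 0.47) and the nuclear median negative (-0.09 to -0.02) under all 20 alternatives. Both moved by less than 1 SD between libraries, 0.285 for the mitochondrial and 0.0409 for the nuclear genes. The mitochondrial SD includes the distance of WT1 from WT2 and WT3. It is a wide yardstick and no error of the difference between groups, and the median was 0.28 with all libraries. Leaving out 1 library in turn gave 0 to 1251 genes called over the whole table, 0 to 1 mitochondrial and 0 nuclear complex I genes. The count of 1251 belongs to the fit without WT1. With arrayWeights 1449 genes and 1 nuclear complex I gene (*Ndufa8*) were called. Without WT1 and with a second change, both chosen after seeing the data, scaling to nuclear reads gave 1238 calls, 1 of them mitochondrial (*mt-Nd6*), and median-ratio scaling 1156, 2 of them mitochondrial (*mt-Nd1* and *mt-Nd6*). The number of calls thus changed with the weight given to WT1, and the cause was not tested. Of the 44 complex I genes tested, 12 changed sign under at least 1 alternative, all with fold changes of at most 0.09 in size. They were *Ndufa1*, *Ndufa2*, *Ndufa6*, *Ndufa13*, *Ndufb4*, *Ndufb9*, *Ndufv3* and 5 taken by the rule for named genes. Over the fits that leave out 1 library these 5 ran from -0.0652 to 0.103 for *Ndufs3*, from -0.169 to 0.000509 for *Ndufs7*, from -0.0665 to 0.113 for *Ndufb10*, from -0.0488 to 0.0633 for *Ndufb2* and from -0.0771 to 0.0738 for *Ndufc1*. *Ndufs3* had -0.0250 with arrayWeights, and *Ndufc1* had 0.0302 with median-ratio scaling, 0.0143 with quantiles, 0.000115 scaled to nuclear reads, 0.000996 without immunoglobulin genes and 0.00248 with voom. Deviations of same-numbered libraries had correlations of -0.10, 0.14 and -0.28, and those of unlike-numbered ones -0.20 to 0.30. These values show no pairing by number, but with 3 libraries a group they cannot exclude one. With the replicate number as a block 0 genes were called, the mitochondrial median was 0.28 and the nuclear -0.05. At 3 libraries a group, 15 to 36 reads on *mt-Nd4l* and 2 to 7 on *Ndufa4l2* limit what can be seen.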
